A study of Mus musculus with 6 samples.

Results

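PKA, the β-adrenergic receptors that switch it on and the PDE3 enzymes that switch it off were followed in the hearts of wild type (WT) and TG-PKR1 mice. The genes were chosen by name, with earlier results of these data known. They are the PKA regulatory subunits Prkar1a, Prkar2a and Prkar2b, the catalytic subunits Prkaca and Prkacb, the receptors Adrb1 and Adrb3, and the phosphodiesterases Pde3a and Pde3b. Every non-control probe that carried one of these names was taken, which gave 17 of the 41174 probes on the array for these 9 of its 27745 gene names. Several steps of the pathway exist in forms that fat cells and heart muscle cells use to differing degrees. Prkar2b, Adrb3 and Pde3b were taken as the fat-type genes, and Prkar1a, Prkar2a, Adrb1 and Pde3a as the cardiomyocyte-type genes. These type names are labels for the comparison, and several of the genes are also used by other cells.

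Noradrenaline or adrenaline binds a β-adrenergic receptor, which activates adenylyl cyclase through the G protein Gs, and the cyclase makes cyclic AMP (cAMP). In the resting PKA holoenzyme a dimer of regulatory subunits holds a pair of catalytic subunits inactive, and binding of cAMP to the regulatory subunits frees them. In heart muscle cells PKA phosphorylates calcium channels, phospholamban and sarcomere proteins and so raises the rate and force of contraction. In fat cells it phosphorylates perilipin 1 and hormone-sensitive lipase and so starts lipolysis, and in brown fat it also drives heat production. PDE3 breaks cAMP down, and its PDE3B form is the one through which insulin restrains lipolysis.

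Each of the 6 arrays held total RNA from the heart of 1 mouse aged 12 weeks. The 3 TG-PKR1 (TG) mice overexpressed PKR1, the prokineticin receptor Prokr1, under the cardiomyocyte-specific alpha myosin heavy chain promoter, and the 3 WT mice did not carry it. The methods place the mouse lines on a C57BL6/J background. The hearts are called A, B and C within each group, and these letters do not pair a WT with a TG mouse. The study asked how gene expression in the heart differs when cardiomyocytes carry more PKR1.

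Between 19662 and 24944 of the 41174 probes stood well above background on an array. The only Prokr1 probe was not well above background on any of the 6 arrays, with normalized log2 signals of 5.84 to 5.96 in WT and 5.86 to 6.13 in TG hearts, so the transgene did not check the labels. The 9 cardiomyocyte markers examined, Myh6 and Myl2 among them, were well above background on all 6 arrays. The scanner's saturation value was higher on 3 arrays (WT A, TG B and TG C) than on the other 3 (WT B, WT C and TG A), and WT B and TG A shared a slide. Differences were therefore also taken within each kind of array and within that slide.

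Promoter sequences are shown first for the 3 regulatory subunit genes, since the clearest difference fell on one of them and not on the other 2. RefSeq promoter windows of build GRCm38.p6 were found for 6 of the 9 genes: Prkar1a, Prkar2a, Prkar2b, Adrb1, Prkaca and Prkacb. Adrb3, Pde3a and Pde3b had none in the table. The table holds 2 windows for Prkar2b, 1 for Prkar2a and 6 for Prkar1a, and the Prkar1a window was picked for its motif, so the 3 lines are examples and not a comparison between the genes. Each line gives the 250 bases upstream of 1 annotated start site, read in the direction of transcription, for Prkar2b at chr12:32061278-32061527 (minus strand), Prkar2a at chr9:108691893-108692142 (plus strand) and Prkar1a at chr11:109650699-109650948 (plus strand). Capitals mark matches on either strand to 3 short motifs: the core of the cAMP response element (CRE), TGACG, then the GC box, GGGCGG, then the box named CCAAT after its letters.
Prkar2b: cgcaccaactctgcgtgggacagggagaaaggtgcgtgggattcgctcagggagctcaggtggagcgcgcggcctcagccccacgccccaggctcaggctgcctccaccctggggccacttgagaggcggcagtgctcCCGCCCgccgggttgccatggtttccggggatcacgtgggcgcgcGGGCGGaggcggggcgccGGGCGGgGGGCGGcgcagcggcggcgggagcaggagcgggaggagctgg
Prkar2a: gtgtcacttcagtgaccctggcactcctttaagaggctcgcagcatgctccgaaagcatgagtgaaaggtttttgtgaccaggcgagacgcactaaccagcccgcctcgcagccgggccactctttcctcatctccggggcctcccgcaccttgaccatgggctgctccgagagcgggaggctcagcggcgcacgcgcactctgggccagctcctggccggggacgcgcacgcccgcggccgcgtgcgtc
Prkar1a: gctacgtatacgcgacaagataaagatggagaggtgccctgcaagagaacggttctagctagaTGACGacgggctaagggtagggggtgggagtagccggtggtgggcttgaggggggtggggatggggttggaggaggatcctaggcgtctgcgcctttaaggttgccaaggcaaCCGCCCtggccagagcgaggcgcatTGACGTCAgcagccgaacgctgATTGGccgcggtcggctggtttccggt
The Prkar1a window shown holds the full cAMP response element TGACGTCA, the site bound by CREB, a transcription factor that PKA phosphorylates. No other window of the 6 genes holds it, the remaining 5 Prkar1a windows included. The element starts at position -49 from the start site, and 1.55% of the 32851 windows in the table hold one. It is made of 2 overlapping CRE cores on opposite strands, and 1 more core lies farther upstream in the same window. The Prkar2b window shown has no CRE core and 4 GC boxes, the motif bound by Sp1, and the second Prkar2b window has none of the motifs. The Prkar2a window has none of the 3 motifs, and 17.8%, 32.7% and 33.8% of all windows hold the CRE core, the GC box and the CCAAT box. A match is only a match of letters, and a window without one says nothing about the factor.

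Prkar2b fell in TG hearts on its single probe (A_51_P221062, mm8 chr12:32543773-32543832, minus strand). Prkar2b encodes RIIβ, the regulatory subunit that predominates in fat cells and in brain. Its normalized log2 signals were 13.06, 12.82 and 12.57 in the WT hearts, and 10.59, 10.69 and 9.54 in the TG hearts, in the order A, B and C used for all values that follow. The lowest WT heart lay far above the highest TG heart, and TG C was the lowest of all. The WT mean was 12.82 ± 0.25 and the TG mean 10.27 ± 0.64 (SD, n = 3 each), a log2 difference of -2.54 (SE 0.30, 95% interval -3.23 to -1.85), or 5.83-fold less signal. The limma adjusted p was 0.0339. Of the 17 probes, 1 was called lower and 0 higher in TG, against 0.095% of the 20000 brightest probes called lower and 0% called higher. The genes were picked with earlier results of these data known, so this count is a description and not a test.

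The Prkar2b difference was also taken within the technical groups, where 1 of the 2 arms is always a single heart. It was -2.95 among the arrays of higher saturation value (WT A alone against TG B and TG C), -2.10 among those of lower value (TG A alone against WT B and WT C) and -2.23 between TG A and WT B on their shared slide. With the kind of array as a block it was -2.53 and the limma adjusted p was 0.189. Leaving out 1 heart at a time kept it between -2.75 and -2.18, and the call held without TG B (limma adjusted p = 0.0440) and was lost without each of the other 5 hearts (0.0612 without WT B, 0.0727 without TG A, 0.0897 without TG C, 0.179 without WT A and 0.183 without WT C). An exact two-sided permutation test of this gene alone gave p = 0.1, the smallest value that 3 hearts against 3 allow.

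The other type II regulatory subunit, Prkar2a, did not pass the test. It encodes RIIα, which heart muscle uses widely. Its probe of highest signal (A_51_P409893, mm8 chr9:108605746-108605805, plus strand) read 8.81, 8.80 and 8.49 in WT and 8.90, 8.77 and 9.10 in TG hearts. The groups overlapped, and the log2 difference was 0.22 (95% interval -0.16 to 0.60, limma adjusted p = 1.0), or 0.12 without WT C and 0.13 without TG C. A second bright Prkar2a probe gave 0.27 (95% interval -0.16 to 0.69). Another Prkar2a probe, well above background on 4 of the 6 arrays, gave 0.04, and the last, well above background on 0 arrays, gave -0.05. The intervals of the 2 bright probes leave out a fall of the size seen for Prkar2b.

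Prkar1a encodes RIα, the regulatory subunit found in most cell types and the one whose loss leaves PKA overactive. Its probe (A_51_P294095, mm8 chr11:109485297-109485356, plus strand) read 10.33, 10.02 and 10.73 in WT and 10.22, 10.20 and 10.18 in TG hearts. All 3 TG hearts lay inside the WT range. The difference was -0.16 (95% interval -0.61 to 0.28, limma adjusted p = 1.0), and it was 0.02 without WT C, -0.33 without WT B and 0.20 within the shared slide. Prkar1b, the RIβ gene of the same list, gave -0.01.

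**Figure D1:**
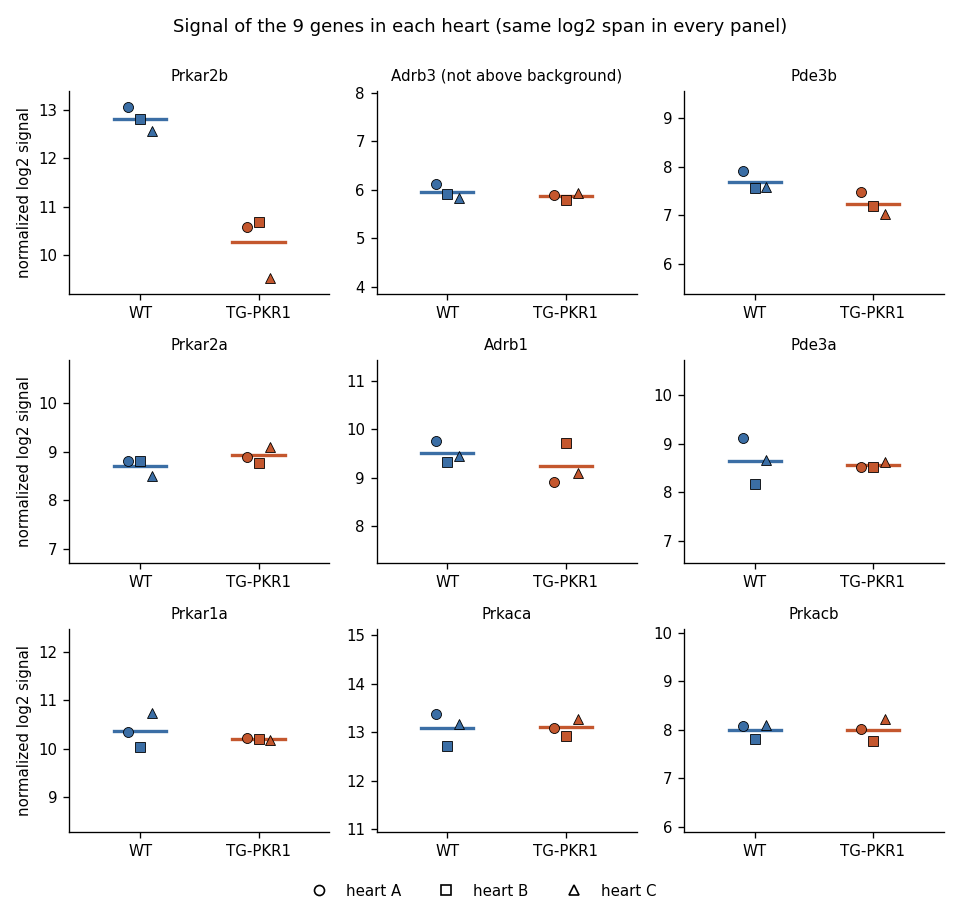
Normalized log2 signal (y axis) of the brightest probe of each of the 9 genes in the 3 WT and 3 TG-PKR1 hearts; points are hearts, bars are group means and every panel spans the same number of log2 units. Prkar2b drops from 12.82 to 10.27, Pde3b shows a small step from 7.69 to 7.24 and Adrb3 lies at background.

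The catalytic subunits gave differences close to 0. Prkaca encodes Cα, the main catalytic subunit of the heart. Its probe (mm8 chr8:86886359-86886418) read 13.36, 12.71 and 13.17 in WT and 13.08, 12.93 and 13.28 in TG hearts, with all TG hearts inside the WT range. The difference was 0.02 (95% interval -0.44 to 0.47, limma adjusted p = 1.0). Prkacb, which encodes Cβ, was measured by 2 probes on chromosome 3 with differences of 0.00 (95% interval -0.39 to 0.40) and 0.21 (95% interval -0.22 to 0.63), and the hearts overlapped on both. With differences this small the sign of Prkaca and Prkacb turned with the processing. Neither catalytic subunit gene passed the test.

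Of the receptors, Adrb3 could not be measured. Adrb3 encodes the β3 receptor, which starts lipolysis and heat production in mouse fat. Its probe (A_51_P179442, mm8 chr8:28692781-28693200, minus strand) is aimed at a splice form and was not well above background on any of the 6 arrays. It read 6.11, 5.92 and 5.83 in WT and 5.88, 5.78 and 5.93 in TG hearts, which is background signal. Whether the fat-type receptor moved with Prkar2b was therefore not detectable with this probe.

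Adrb1 encodes the β1 receptor, through which noradrenaline raises heart rate and force, and its 2 probes differed in sign. The brighter one (A_52_P322181, mm8 chr19:56777975-56778034) read 9.77, 9.32 and 9.45 in WT and 8.91, 9.70 and 9.09 in TG hearts. TG B lay among the WT hearts and the other 2 TG hearts lay below them, and the difference was -0.28 (95% interval -0.81 to 0.25, limma adjusted p = 1.0). It was -0.52 without TG B, -0.12 without TG A and -0.15 without WT A. The second (A_51_P203827, mm8 chr19:56776002-56776061) gave 0.17 (95% interval -0.23 to 0.58).

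Pde3b, the phosphodiesterase of the insulin effect in fat cells, was lower in every TG heart but by a small step that did not pass the test. Its measured probe (A_51_P143431, mm8 chr7:114327334-114327393, plus strand) read 7.92, 7.56 and 7.59 in WT and 7.49, 7.20 and 7.03 in TG hearts. The difference was -0.45 (SE 0.18, 95% interval -0.86 to -0.04), with an unadjusted limma p of 0.0355 and an adjusted p of 1.0. It was -0.80 among the arrays of higher saturation value, -0.09 among those of lower value and -0.07 within the shared slide. Each of these rested on a single heart in 1 arm or both. With the processed signal the difference was -0.71 and with 75th percentile scaling -0.62, and neither passed the test. An unadjusted p under 0.05 with a lower TG mean was found for 1.66% of the 20000 brightest probes. Every TG heart lay below every WT heart for 2.73% of those measured on all arrays and above for 2.68%. Prkar2b and Pde3b were the 2 of 17 probes with every TG heart below, and 0 had every TG heart above. A second probe named Pde3b runs on the opposite strand and was not well above background on any array.

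Pde3a, the PDE3 form of heart muscle and vessels, had 3 probes, of which 1 was well above background on all 6 arrays. That probe (A_52_P421881, mm8 chr6:141464039-141464098) read 9.11, 8.17 and 8.67 in WT and 8.52, 8.52 and 8.63 in TG hearts. The TG hearts lay inside the WT range, and the difference was -0.09 (95% interval -0.62 to 0.44, limma adjusted p = 1.0). It was 0.14 without WT A, the WT heart with the highest value, and -0.33 without WT B, the one with the lowest. It was -0.54 among the arrays of higher saturation value, 0.10 among those of lower value and 0.35 within the shared slide. The other 2 probes, well above background on 1 and 0 arrays, gave 0.02 and 0.01.

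**Figure D2:**
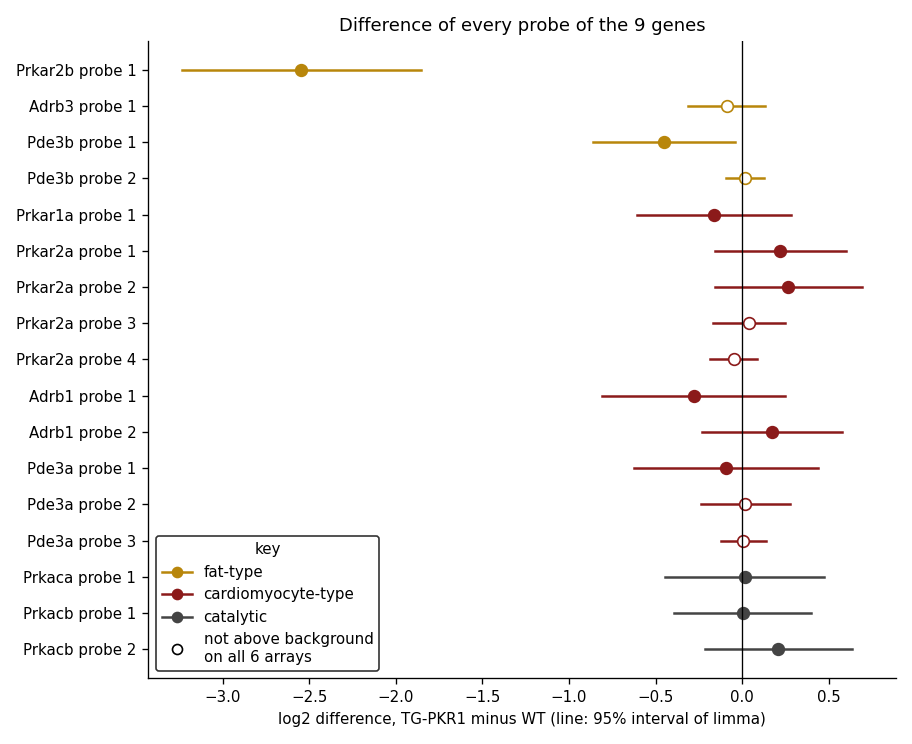
Log2 difference (x axis, TG-PKR1 minus WT) of each of the 17 probes with the 95% limma interval; filled points were well above background on all 6 arrays. The Prkar2b interval, -3.23 to -1.85, stands apart from the others, which lie between -0.86 and 0.69.

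The fat-type and cardiomyocyte-type genes were next set side by side with the brightest probe of each gene. Only 2 of the 3 fat-type genes could be measured, and their log2 differences were -2.54 (Prkar2b) and -0.45 (Pde3b). Of these, Prkar2b was called. The 4 cardiomyocyte-type genes gave a median of -0.13 (range -0.28 to 0.22), against 0.03 over the 20000 brightest probes. That median was -0.0079 without WT A, -0.03 without WT C and -0.33 without WT B. Of the 4, 3 had a lower mean in TG, as did 41.8% of the 20000 probes.

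Within each heart the fat-type gene was also taken relative to its paralogue, and the 3 pairs were tested with an exact two-sided permutation test, which cannot go below p = 0.1. Prkar2b minus Prkar2a, set to a WT mean of 0, was 0.13, -0.09 and -0.04 in WT and -2.42, -2.20 and -3.68 in TG hearts. Every TG heart lay below every WT heart, and the change was -2.76 (SE 0.47, exact p = 0.1, 0.3 after adjustment over the 3 pairs). It was -3.07 and -2.35 among the arrays of higher and lower saturation value and -2.32 within the shared slide. Pde3b minus Pde3a changed by -0.36 (SE 0.24, exact p = 0.3, adjusted 0.45) with overlapping hearts, and by -0.18 without WT B and -0.21 without TG C. Adrb3 minus Adrb1 rests on a probe at background and is not read here, although it counts among the 3 pairs of the adjustment.

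**Figure D3:**
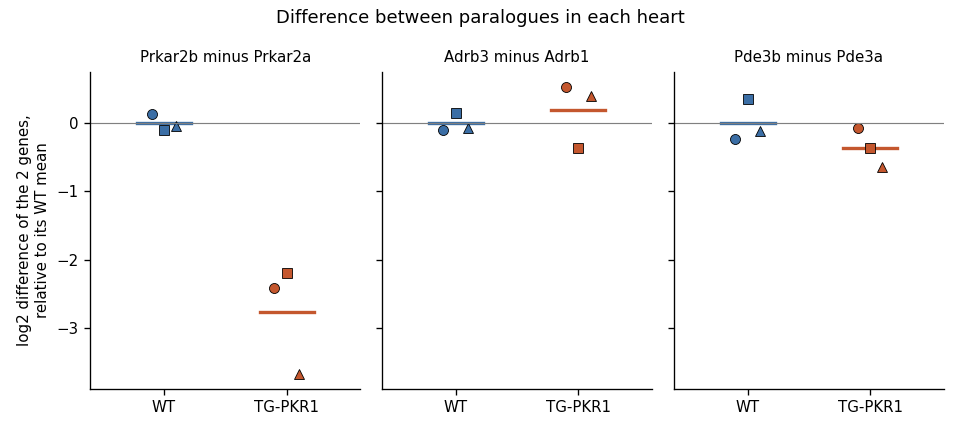
Log2 difference between the fat-type gene and its cardiomyocyte-type paralogue (y axis, relative to the WT mean of that difference) in each heart; points are hearts and bars are group means. The 3 TG hearts lie at -2.20 to -3.68 for Prkar2b minus Prkar2a and overlap the WT hearts for Pde3b minus Pde3a; the Adrb3 panel rests on a probe at background.

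Fat-cell markers moved with Prkar2b across the hearts, and their part in its fall was not tested. In whole hearts, fewer fat cells and less RNA per fat cell cannot be told apart. All 10 white and general adipocyte markers had a lower mean in TG hearts and 9 of them had every TG heart below every WT heart, a pattern of 2.73% of the bright probes. Of the 10, 3 were called lower, against 0.095% of the 20000 brightest probes, and 8 were well above background on all 6 arrays. Their summed linear signal was 125273 to 186861 in WT and 70300 to 84273 in TG hearts. That list includes Adipoq (adiponectin), which fell by 1.93 on the log2 scale (limma adjusted p = 0.0339). The 7 brown adipocyte markers summed to 43555 to 70590 in WT and 13539 to 19028 in TG hearts, with Ucp1, the uncoupling protein of brown fat, lower by 9.41-fold (limma adjusted p = 0.0445). Of these 7, 6 had a lower mean, 5 had no overlap and 1 was called lower. Over the bright probes, 41.8% had a lower mean, 2.73% had every TG heart below and 0.095% were called lower. The paper had already named Adipoq, Plin1, Fabp4, Pparg and Ucp1 as lower in TG hearts from these same arrays. The counts of both marker lists are therefore a description and not fresh evidence. Among the 7, Ppargc1a, a coactivator also used by heart muscle, gave 0.49. The sums weight the brightest genes most. No probe of the array, these markers included, was called with the kind of array as a block or without WT A, WT C, TG A or TG C. The 9 cardiomyocyte markers summed to 781084 to 1127070 in WT and 810613 to 1372400 in TG hearts, overlapping, with Myh6 at 0.16 and Myl2 at 0.02. The endothelial, smooth muscle, cardiac fibroblast and macrophage sums also overlapped. Of the 4 sympathetic neuron markers, 3 were not well above background on any array, and those sums overlapped too.

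**Figure D4:**
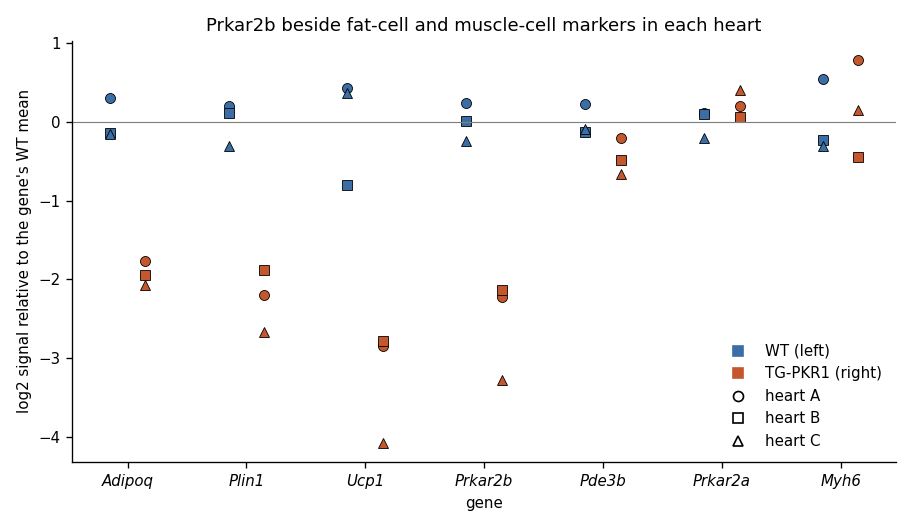
Log2 signal of 7 genes in each heart relative to that gene's WT mean (y axis); blue points are WT and orange points TG-PKR1 hearts. Adipoq, Plin1, Ucp1 and Prkar2b fall in all 3 TG hearts, Pde3b by less, and Prkar2a and Myh6 stay within 1 log2 unit of 0.

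The genes whose pattern over the 6 hearts was most like that of Prkar2b were Pygl, Ntrk2, Nrg4, Angptl8 and Plin1, with Pearson correlations of 0.999, 0.998, 0.997, 0.996 and 0.993 among 19955 probes. These correlations mostly restate the step between the groups and are given as a description over 6 hearts. Pygl, liver-type glycogen phosphorylase, and Ntrk2, the receptor of the neurotrophin BDNF, were lower by 4.74-fold and 3.86-fold, both with a limma adjusted p of 0.0339. Nrg4, a growth factor secreted by brown fat, and Angptl8, an insulin-induced inhibitor of lipoprotein lipase activity, gave differences of -1.11 and -0.82 with limma adjusted p of 0.0899 and 0.369. Among the 9 genes Pde3b was closest to Prkar2b (r = 0.88), and Prkar2a lay at the other end (r = -0.67). With each group's mean removed, the correlations were 0.71 for Pde3b and -0.38 for Prkar2a, and the lowest was -0.69 for Prkacb.

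For Pde3b the most similar patterns were those of the probes NAP019282-001, Gm5176, Rasd1, NAP028025-1 and Hacd2, with correlations of 0.985 to 0.996 and differences of -0.33 to -0.80, none of them called. For Adrb3 they were Dhx34, Ppp2r5a, Klf10, Cyp4f18 and Mras, with correlations of 0.979 to 0.997. Since the Adrb3 probe was at background, that order describes the background signal.

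The rest of the cAMP pathway was read from lists of its parts. Of the genes other than the 9, 78 were among the 20000 brightest probes, of which 1 was called lower and 0 higher. Over all 20000 probes, 0.095% were called lower and 0% higher. The called gene was Plin1, perilipin 1, the lipid droplet protein that PKA phosphorylates to open the droplet to lipases, which also stands in the adipocyte marker list. The paper had already named Plin1 as lower from these arrays. It read 12.09, 11.99 and 11.58 in WT and 9.70, 10.00 and 9.22 in TG hearts, a fall of 4.75-fold (log2 difference -2.25, SE 0.23, limma adjusted p = 0.0339). Without WT A, WT C, TG A or TG C the count of called pathway genes was 0. The median difference of the 78 genes was 0.04, and 32 of them had a lower mean in TG.

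Hearts of the 2 groups did not overlap for 13 of these 78 genes (16.7%, 7 lower and 6 higher in TG), against 5.41% of all bright probes, and Plin1 was the only one of them called. Among the 6 lipolysis genes, 5 had a lower mean and 4 were lower without overlap: Plin1, the triglyceride lipase Pnpla2 (-0.54), hormone-sensitive lipase Lipe (-0.51) and monoglyceride lipase Mgll (-0.26). These last 3 did not pass the test, with limma adjusted p of 1.0 each. Without WT A the differences of Lipe and Mgll were -0.12 and -0.15, and without TG C that of Pnpla2 was -0.36. The second bright probes of Pnpla2 and Mgll gave -0.16 and -0.17 with overlapping hearts, and that of Lipe gave -0.71 without overlap. Abhd5, the coactivator of Pnpla2, gave 0.10, and its second bright probe gave -0.11.

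Among the 10 measured PKA targets of heart muscle, 2 had a lower mean. Ppp1r1a, which encodes protein phosphatase inhibitor 1 and when phosphorylated by PKA blocks protein phosphatase 1, read 9.96, 9.56 and 9.504 in WT and 8.48, 8.99 and 8.18 in TG hearts. All TG hearts lay below all WT hearts, and the difference was -1.13 (SE 0.23, limma adjusted p = 0.324). The list names a role in heart muscle, and which cells of the heart carried this difference was not tested. The median of that list was 0.10.

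No gene passed the test in the remaining lists of anchoring proteins and inhibitors (13 measured), G proteins and cyclases (17), other phosphodiesterases (11), other cAMP effectors (8) and CREB family and cAMP-induced genes (11). Their largest differences, on the brightest probe of each gene, were 0.21 for Akap1, which tethers PKA to mitochondria, and -0.37 for the cyclase Adcy3. The others were 0.57 for the cAMP phosphodiesterase Pde7a, 0.61 for the cAMP-binding membrane protein Popdc3 and 0.61 for the orphan nuclear receptor Nr4a1. Other bright Akap1 probes gave 0.46 with overlapping hearts, and a second bright Pde7a probe gave 0.68 without overlap. For the G protein gene Gnai1 the brightest probe gave -0.06 and a second bright probe -0.55 without overlap. The hearts overlapped on all other Gnai1 probes. Adcy3 was lower, and Pde7a and Nr4a1 were higher, in all 3 TG hearts than in any WT heart, each with a limma adjusted p of 1.0. Single hearts carried some of these values: without WT A the Adcy3 difference was -0.10 and that of Akap1 0.50, without WT B that of Akap1 was -0.02, and that of Popdc3 was 0.39 without TG A and 0.91 without TG B.

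**Figure D5:**
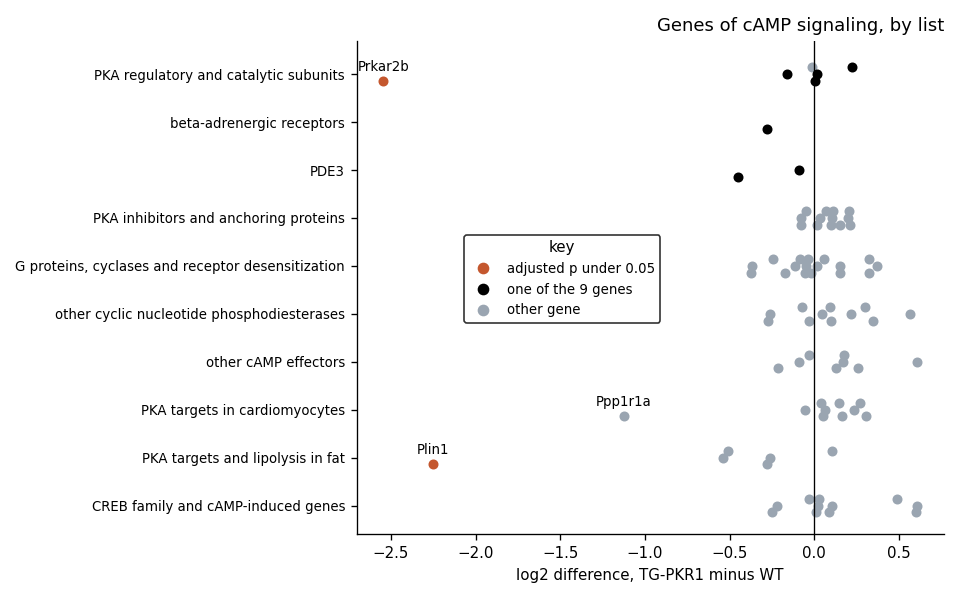
Log2 difference (x axis, TG-PKR1 minus WT) of the genes of the cAMP pathway, grouped by list (y axis); orange marks an adjusted p under 0.05, black the other members of the 9 genes and grey all remaining genes. Prkar2b and Plin1 stand far to the left, Ppp1r1a lies at -1.13 and the other genes lie between -0.54 and 0.61.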

How the data were processed

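Heart RNA of 3 WT and 3 TG-PKR1 mice was hybridized to single-dye Agilent arrays. The authors deposited scanner files with spot intensity values from Agilent Feature Extraction 9.5.1.1 (probe coordinates mm8), and a log2 table in which the authors had fitted LOWESS against the median profile, averaged replicate probes and kept about 20000 bright probes. That table was used as an alternative. No other value columns were left unused.

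Here the log2 of the median spot intensity was taken without background subtraction, control and outlier spots were removed, and each array was fitted by loess (span 0.3, 4 iterations) to the median profile of all arrays, against the mean of array and profile. Replicate spots were averaged to 1 value per probe, and limma was run on the 20000 probes of highest median (version 3.58.1 in R 4.3.3), with Benjamini-Hochberg adjustment and a threshold of 0.05. Of the 17 probes of the 9 genes, 11 were among the 20000, and none was missing or saturated. Values of the other 6 came from a fit over all 41174 probes, in which 0 probes were called. A gene with several probes is represented by the one of highest mean signal. Well above background is the scanner software's own call. The number of arrays limits the precision. The labels do not say how the mice are related, so p-values measure the spread between these hearts. The sample titles give WT B and TG A the same leading number, and what it stands for is not said.

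Probe names were matched to current RefSeq symbols by accession for 24375 probes, by symbol for 6301 and by synonym for 2426, and 8072 kept the name in the file. Cacna1c and Crtc1 of the pathway lists were matched to no probe. The genes named are the 9, any pathway gene past the threshold, the gene of largest difference in each pathway list (1 of them is not reported here), the 5 nearest patterns to Prkar2b, Pde3b and Adrb3, and the markers Adipoq, Plin1, Ucp1, Myh6 and Myl2. Pnpla2, Lipe, Mgll, Abhd5 and Gnai1 were added after their values were seen. The genes and lists were chosen with earlier results of these data known. The fit was tested on simulated data, and no value of that test is given here. Alternatives changed the signal, normalization, filter, test, scan group and hearts, and SAM was run over all 20 assignments. Its calls took the least strict cutoff tried at which the median assignment gave no false call.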

Additional observations from a re-analysis of the deposited data

How the results depend on the processing

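The Prkar2b difference was below 0 in all 19 alternatives, between -2.75 and -2.18, and was called in 7 of the 18 that gave an adjusted p (0.0149 to 0.657). It was not called with 75th percentile scaling (-2.40, limma adjusted p = 0.103), all probes (-2.54, 0.657), a filter of 3 arrays well above background (-2.54, 0.0867), the authors' table (-2.52, 0.0942), scan limit as a block (-2.53, 0.189) and a loess on the median profile itself (-2.53, 0.0782), the last chosen after seeing the data. In those 6 settings 0 of the 17 probes (11 in the authors' table) and 0 pathway genes were called. Over the whole array, 19 probes were called lower; the count was 36 with normexp and quantile normalization, 33 with quantile normalization, 31 with trend and robust variances, 56 with SAM (Prkar2b among them, no other of the 9 genes), 2 with the loess on the profile itself and 0 in the other 5 of those settings. With 1 heart left out, 0 to 19 probes, 0 to 1 of the 17 probes and 0 to 1 pathway genes were called. The SAM count rests on that test's own cutoff and not on an adjusted p, so it is not at the threshold of the other counts. No setting called a probe higher. For the count of 0 with all probes, 577 were lower and 479 higher at an unadjusted p under 0.05.

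With Adrb3 at background included, the median of the 3 fat-type genes was -0.45 (the Pde3b value), -0.71 with the processed signal, -0.74 with 75th percentile scaling (the Adrb3 value, a background signal) and -0.22 with the mean over a gene's probes. Without 1 heart it ranged from -0.57 to -0.33, and the cardiomyocyte-type median from -0.33 to -0.0079. Adrb3 minus Adrb1, which rests on background signal and has no direction, turned from 0.19 to -0.31, -0.54 and -0.0365 with the processed signal, percentile scaling and the mean over probes. Pde3b minus Pde3a was -0.71 with the processed signal, -0.23 with the scan block and -0.19 with the mean over probes. Single genes near 0 also reversed. Pde3a gave 0.0022 with the processed signal, 0.14 without WT A and 0.35 within the shared slide. Prkar1a gave 0.0211 without WT C and 0.20 within the shared slide. Prkaca gave -0.0143 with the processed signal, -0.0206 with normexp, -0.0209 with quantile normalization, -0.0067 in the authors' table, -0.0592 with the scan block, -0.17 without WT B and -0.08 without TG C, against 0.16 without WT A and 0.37 within the shared slide. Prkacb gave -0.0524 with the processed signal, -0.0679 with percentile scaling, -0.0233 in the authors' table, -0.0108 with the scan block, -0.0042 with the loess on the profile itself, and -0.09, -0.0065 and -0.11 without WT B, TG A and TG C, against 0.12 without TG B and 0.20 within the shared slide. The cause of these shifts was not tested. The slide was not fitted as a random block, and 1 slide alone holds more than 1 array. No paired analysis was possible because the letters A, B and C only name the hearts in accession order, and WT B and TG A alone share a slide. The Adrb3 probe lay at background, and whether signal strength limits the values of the other genes was not tested.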
